A study of Mus musculus with 24 samples.

Results

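Chemokine receptors are surface proteins that steer lymphocytes along gradients of chemokines, and a small set of them has been linked to the entry of natural killer T (NKT) cells into the liver and to their residence there. The 7 genes studied here, Cxcr3, Cxcr4, Cxcr6, Ccr2, Ccr7, Ccr9 and Cx3cr1, were measured in single NK1.1+CD3e+ cells from the mouse liver. They were taken by symbol, and all 7 were present among the 24447 genes of the count matrix. Cells came from WT C57BL/6 mice, from Jα18-deficient mice, which lack a gene segment needed for the receptor of type I NKT cells, and from CD1d-deficient mice, which are without the lipid-presenting molecule on which NKT cells of type I and of type II depend. All mice were 8 to 10 weeks old, on the C57BL/6 strain and with no treatment in the labels, and the cells were sorted from leukocytes of perfused livers and picked by hand. WT mice were purchased and the deficient mice came from another laboratory, so that origin and genotype cannot be told apart. As models, the original Jα18-deficient mice have a narrowed T cell receptor repertoire, and the CD1d-deficient mice kept the related gene CD1d2. The sex and number of the mice are not given in the sources used here.

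The matrix held 1735 cells, of which 623 were WT, 725 were Jα18-deficient and 387 were CD1d-deficient. Each cell is named only by its genotype and a number, although the labels give 8 libraries per genotype, so that each genotype was 1 pool without replicates and genotypes were compared by value, with no test. Values are counts of unique molecular identifiers (UMIs), each standing for 1 captured transcript, and levels are given as CPM, the UMIs of a gene for each 1000000 UMIs of the same cells. The intervals in brackets are exact 95% intervals, Poisson for CPM and Clopper-Pearson for shares of cells. They cover counting error only and say nothing of how mice or libraries vary. The median cell had 40467 UMIs in WT, 46670 in Jα18-deficient and 13508 in CD1d-deficient mice. Because a deeper cell is more likely to show a rare transcript, shares were also computed after thinning each cell to 10000 UMIs, which left out 353 shallower cells. The sort was visible in the data, since Cd3d, a chain of the T cell receptor complex, was found in 96.9% to 99.3% of the cells of a pool and Klrb1c, which encodes NK1.1, in 92.0% to 95.6%. Markers of other cells differed between the pools, with Lyz2, the lysozyme gene of myeloid cells, at 77.3 CPM in WT, 14.7 in Jα18-deficient and 588 in CD1d-deficient cells. Cd79a, a B cell gene that T cells lack, had a UMI in 4.01%, 2.62% and 2.58% of these cells and gives a reference for shares that rest on stray UMIs.

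All members are receptors coupled to inhibitory G proteins, and each answers to its own chemokines. CXCR6 binds CXCL16, which is displayed on the endothelium of the liver sinusoids, and is known to be needed for the patrolling and survival of NKT cells there. CXCR3 binds the interferon-induced chemokines CXCL9, CXCL10 and CXCL11, CXCR4 binds CXCL12, and CCR2 binds CCL2 and related chemokines of inflamed tissue. CCR9 answers to CCL25 of thymus and gut, CCR7 to CCL19 and CCL21 of lymph nodes, and CX3CR1 to the membrane-bound fractalkine CX3CL1. S1pr1, the receptor for sphingosine 1-phosphate that lets lymphocytes leave tissues, and Cd8a, a chain of the CD8 coreceptor, were used to divide the cells.

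Ccr9, Cxcr6 and Ccr2 lie in the chemokine receptor cluster of chromosome 9. In the mm9 build, Ccr9 spans chr9:123587557-123691089, Cxcr6 spans chr9:123715595-123720872 and Ccr2 spans chr9:124016689-124028296, all on the plus strand. The gap between Ccr9 and Cxcr6 is 24505 bases, and that between Cxcr6 and Ccr2 is 295816 bases. Because Ccr9 and Cxcr6 are close neighbours that were detected in very different numbers of cells, the 250 bases before the start of each are shown. They were taken from the RefSeq promoters of GRCm38.p6, of which 6 of 7 members had an entry, and each matched mm9 exactly at 1 place. Neither window overlaps an annotated exon, and the Ccr9 window, chr9:123676079-123676328, lies within an intron of the longer annotated gene, while the Cxcr6 window, chr9:123715345-123715594, ends at the base before the gene. Capitals mark the cores of the motifs of T-box factors (GGTGTG), Krüppel-like factors (CACCC) and Runx factors (TGTGGT), searched on both strands.
Cxcr6: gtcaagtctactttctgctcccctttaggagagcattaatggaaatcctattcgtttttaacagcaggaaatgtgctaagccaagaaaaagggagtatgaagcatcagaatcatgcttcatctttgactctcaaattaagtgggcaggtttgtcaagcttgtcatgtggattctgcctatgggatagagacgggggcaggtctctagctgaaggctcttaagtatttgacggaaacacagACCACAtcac
Ccr9: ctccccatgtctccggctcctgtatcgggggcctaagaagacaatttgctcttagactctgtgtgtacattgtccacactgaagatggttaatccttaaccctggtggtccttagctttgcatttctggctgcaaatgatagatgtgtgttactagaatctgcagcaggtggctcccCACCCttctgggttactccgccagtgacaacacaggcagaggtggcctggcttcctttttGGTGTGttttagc
The Cxcr6 window held 1 Runx core and neither of the others, and the Ccr9 window held 1 T-box core and 1 Krüppel-like core and no Runx core. Of 32851 mouse promoters in windows of the same length, 14.0% held the Runx core, 16.3% the T-box core and 52.0% the Krüppel-like core, so that these matches are a description and not sites.

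Cxcr6 and Cxcr3 were the receptor genes found in nearly every cell. At least 1 UMI of Cxcr6 was present in 98.6% [97.3, 99.3] of the WT cells, and in 95.2% [93.4, 96.6] and 91.0% [87.6, 93.6] of those from Jα18-deficient and CD1d-deficient mice. For Cxcr3 the shares were 95.5% [93.6, 97.0], 95.7% [94.0, 97.1] and 82.7% [78.5, 86.3]. Ccr2 was found in 59.8% of all cells and Ccr9 in 19.3%, while Cx3cr1, Cxcr4 and Ccr7 were found in 10.95%, 2.94% and 2.25%. The members also differed in how many UMIs a positive cell held. Of the cells with Cx3cr1, 75.8% held 1 UMI, and the same was true of 74.5% of the cells with Cxcr4, 38.6% of those with Ccr9, 27.6% of those with Ccr2 and 4.65% of those with Cxcr6. Ccr7 was different again, since 64.1% of its 39 positive cells held 1 UMI but 95.7% of its UMIs came from 13 cells.

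**Figure D1:**
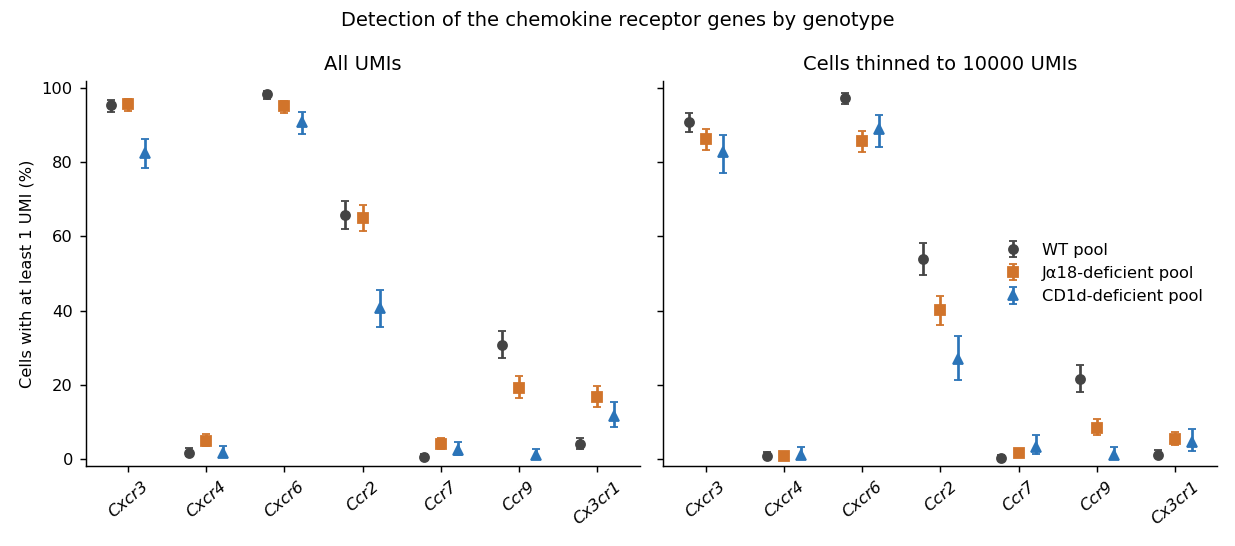
Share of cells with at least 1 UMI of each receptor gene (vertical axis, percent) in the WT, Jα18-deficient and CD1d-deficient pools, from all UMIs on the left and after thinning to 10000 UMIs per cell on the right; bars are exact 95% Clopper-Pearson intervals. Cxcr6 and Cxcr3 lie above 80% in every pool, Ccr2 and Ccr9 fall from WT to CD1d-deficient cells after thinning, and the remaining genes stay under 7% there.

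**Figure D2:**
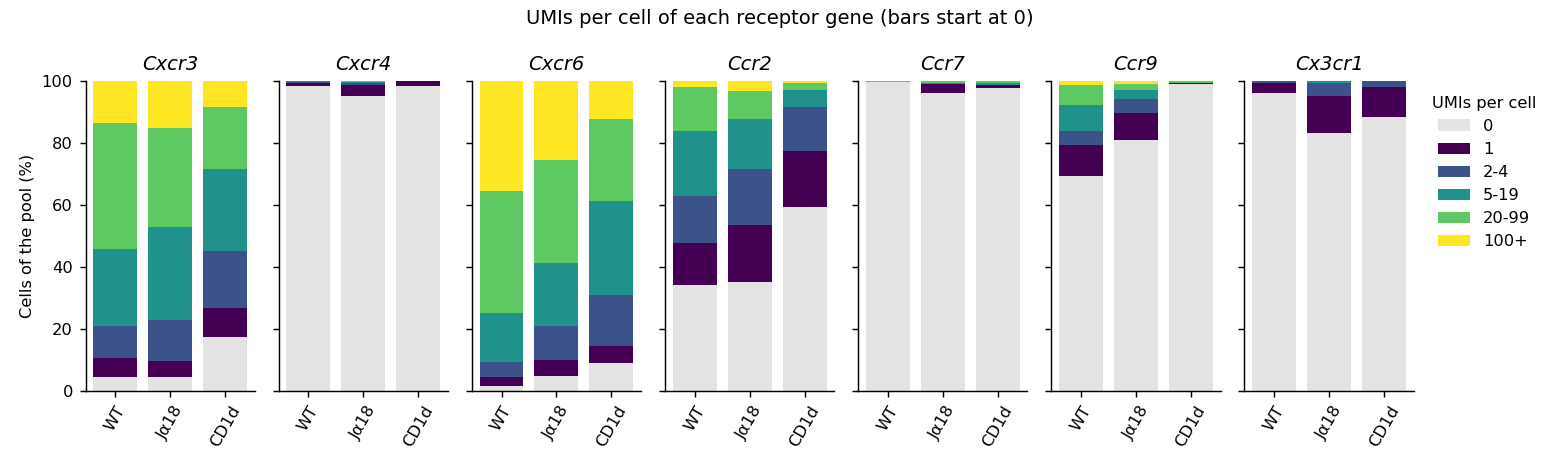
Cells of each pool (vertical axis, percent) stacked by the number of UMIs of each receptor gene in the cell, from 0 in grey to 100 or more in yellow. Cxcr3 and Cxcr6 fill all bins, whereas the coloured part of Cx3cr1 and Cxcr4 is mostly cells with 1 UMI.

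Cxcr6 was highest in the WT pool. Its level was 2032 CPM [2017, 2047] in WT, 1254 [1245, 1263] in Jα18-deficient and 1309 [1290, 1327] in CD1d-deficient cells, so that WT stood apart and the deficient pools lay close together. The log2 ratio to WT was -0.70 [-0.71, -0.68] for the Jα18-deficient pool and -0.63 [-0.66, -0.61] for the CD1d-deficient pool, and that between the deficient pools was 0.06 [0.04, 0.08]. The lower end of the distribution moved more than the middle. The 10th percentile over cells was 466 CPM in WT, against 35.7 in Jα18-deficient and 31.0 in CD1d-deficient cells, while the medians over cells were 1695, 846 and 894 CPM. At equal depth, 97.5% [95.8, 98.7] of WT cells had a UMI of Cxcr6, against 85.9% [83.0, 88.5] and 89.0% [84.2, 92.7] of the deficient cells. Within the cell classes defined below, this order depended on the class rule.

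Cxcr3, the receptor for CXCL9 and CXCL10, did not follow Cxcr6. Its level was 819 CPM [810, 829] in WT, 612 [606, 618] in Jα18-deficient and 844 [829, 859] in CD1d-deficient cells. The log2 ratio to WT was -0.42 [-0.44, -0.40] for the Jα18-deficient pool and 0.04 [0.01, 0.07] for the CD1d-deficient pool. The place of the CD1d-deficient pool depended on the weight of the cells. With each cell given equal weight, Cxcr3 was at 832 CPM in WT, 594 in Jα18-deficient and 651 in CD1d-deficient cells, a log2 ratio of -0.35 between CD1d-deficient and WT cells, and after thinning that ratio was -0.26. A single cell of the CD1d-deficient pool held 666 of its 12269 UMIs of Cxcr3, and without that cell the level was 808 CPM.

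Ccr2, the CCL2 receptor, fell in steps from WT to CD1d-deficient cells when all cells of a pool were taken. Its level was 211 CPM [207, 216] in WT, 139 [136, 142] in Jα18-deficient and 64.9 [60.8, 69.1] in CD1d-deficient cells. Of the cells, 37.1% [33.3, 41.0], 28.6% [25.3, 32.0] and 8.53% [5.94, 11.8] held 5 or more UMIs. Without thinning, the share of cells with a UMI was 65.8% in WT and 65.0% in Jα18-deficient cells, but at equal depth the shares were 53.9% [49.5, 58.3], 40.0% [36.2, 44.0] and 26.9% [21.2, 33.1] in the order WT, Jα18-deficient and CD1d-deficient. Within the cell classes defined below, the order of the levels depended on class and depth. From all UMIs, the Cd8a class was at 128 CPM in Jα18-deficient and 105 in WT cells. The S1pr1 class was highest in CD1d-deficient cells, at 357 CPM, mostly from 1 cell. With classes made again at equal depth, the order held in each class. Ccr2 is also a gene of monocytes, and of 13 myeloid markers 12 had a UMI, with a summed level of 701 CPM in WT, 1568 in Jα18-deficient and 3461 in CD1d-deficient cells. Most of that sum was Fcer1g, at 481, 1371 and 2790 CPM, which NK cells also express. Ly6c1 was at 132, 172 and 55.4 CPM, Csf1r at 3.28, 2.23 and 9.15, Cd68 at 5.48, 4.28 and 13.3, and Adgre1 at 0.32, 0.050 and 1.72, while S100a9 was at 0. The part of such cells in the Ccr2 values was not tested.

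Ccr9 showed the widest difference between the pools of the 4 members with over 1000 UMIs. Its level was 96.9 CPM [93.6, 100.2] in WT, 42.0 [40.4, 43.7] in Jα18-deficient and 3.78 [2.85, 4.92] in CD1d-deficient cells. In the WT pool 101 of 623 cells, or 16.2% [13.4, 19.3], held 5 or more UMIs, and 42 of 725, or 5.79% [4.21, 7.75], did so in the Jα18-deficient pool. In the CD1d-deficient pool 4 of 387 cells had any UMI and 2 had 5 or more, and 1 of those held 32 of the 55 UMIs. At equal depth the share with a UMI was 21.4% [18.0, 25.2], 8.39% [6.34, 10.8] and 0.88% [0.11, 3.15]. The intervals of the pools did not overlap, and the log2 ratio to WT was -1.20 [-1.28, -1.13] for the Jα18-deficient and -4.68 [-5.09, -4.29] for the CD1d-deficient pool.

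Cx3cr1, Cxcr4 and Ccr7 were sparse, and their pool values rest on few UMIs or few cells. Cx3cr1, the fractalkine receptor, was at 0.79 CPM [0.52, 1.152] in WT, 4.05 [3.56, 4.59] in Jα18-deficient and 3.58 [2.67, 4.69] in CD1d-deficient cells, and the values of the deficient pools did not differ beyond counting error. At equal depth 0.96% [0.31, 2.22], 5.22% [3.62, 7.26] and 4.41% [2.13, 7.95] of the cells had a UMI. The WT share of Cx3cr1 before thinning, 3.85%, is below that of the B cell gene Cd79a and is read as background, while the deficient pools had a UMI in 16.7% (Jα18) and 11.6% (CD1d) of the cells. Cxcr4 was at 0.50 CPM [0.29, 0.80], 1.97 [1.63, 2.35] and 0.41 [0.15, 0.90], and its shares of 1.61% in WT and 1.55% in CD1d-deficient cells were below that of Cd79a. Its higher share of 4.83% in Jα18-deficient cells was 0.79% at equal depth, against 0.57% in WT. Ccr7, the lymph node homing receptor, was at 1.20 CPM [0.86, 1.63], 7.72 [7.04, 8.45] and 8.26 [6.84, 9.87]. Without the cell that held the most UMIs in each pool, these values were 0.029, 3.86 and 5.69 CPM, so that 1 cell held nearly all of the Ccr7 of the WT pool.

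The members can be read against all genes with at least 100 UMIs in a pair of pools. Between Jα18-deficient and WT cells 21.2% of such genes differed by 2-fold or more, and so did 4 of 7 members, with Ccr7, Cx3cr1 and Cxcr4 higher and Ccr9 lower in the Jα18-deficient pool. Between CD1d-deficient and WT cells the background was 24.5%, and 3 of the 5 members with enough UMIs passed, with Ccr7 higher and Ccr2 and Ccr9 lower. Between CD1d-deficient and Jα18-deficient cells it was 27.3%, and Ccr2, Ccr9 and Cxcr4 passed, all lower in the CD1d-deficient pool. The median log2 ratio of the members was -0.42, -0.63 and -0.18 in these pairs, beside 0.13, 0.01 and -0.13 for all genes. The pairs share pools, so that their counts are not independent, and Ccr7, Cx3cr1 and Cxcr4 had 628, 324 and 142 UMIs in all pools together.

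Cells were next divided by the genes of the egress receptor and of the CD8 coreceptor. Cells with a UMI of Cd8a and none of S1pr1 are called the Cd8a class, those with S1pr1 and no Cd8a the S1pr1 class, and those with neither gene the neither class. The Cd8a class held 91 WT, 267 Jα18-deficient and 214 CD1d-deficient cells, the S1pr1 class 31, 56 and 18, and the neither class 495, 345 and 135. Cells with both genes, 6, 57 and 20, were left out of the tests. Classes were compared on UMIs summed over the cells of each pool and class, with the quasi-likelihood test of edgeR on the 9 sums, a term for the pool and the Benjamini-Hochberg adjustment over all genes tested. The 3 pools of different genotype stood in as replicates (n = 3), so that a difference had to hold across genotypes, and calls required both an adjusted p below 0.05 and a change of more than 0.25 on the ln scale. All 7 members passed the filter on low counts.

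None of the members was called between classes. Apart from Cd8a and S1pr1, which define the classes and are left out of these counts, 9802 genes were tested, the members included. In the comparison of the Cd8a class with the neither class 0% of them were called, in that of the S1pr1 class with the neither class 0%, and in that of the S1pr1 class with the Cd8a class 0.0408%, which is 4 genes. At an unadjusted p under 0.05 there were 120, 804 and 867 genes, and among the members 0, 0 and 1. DESeq2 called 0, 90 and 173 genes and limma 0, 0 and 3, with no member among them. The member at an unadjusted p under 0.05 was Ccr2, at a log2 fold change of 1.26 ± 0.56 (SE) in the S1pr1 class over the Cd8a class, with an adjusted p of 0.54 by edgeR. Its log2 ratio within a pool was 0.70 in WT, -0.59 in Jα18-deficient and 2.73 in CD1d-deficient cells. In the CD1d-deficient S1pr1 class 1 cell held 87.1% of the Ccr2 UMIs. Without the CD1d-deficient or the WT pool, 0 members were at an unadjusted p under 0.05 by edgeR in this comparison, and without the Jα18-deficient pool 1 was.

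Cxcr6 did not pass the test in any comparison of classes. In WT cells it was 2053 CPM in the Cd8a class, 1959 in the S1pr1 class and 2036 in the neither class. In Jα18-deficient cells it was 1154, 1428 and 1371 CPM, and in CD1d-deficient cells 1265, 912 and 1523 CPM. Within each class WT was above both deficient pools when 1 UMI defined the class, but with 5 UMIs required Cxcr6 in the Cd8a class was at 1362 CPM [1305, 1420] in WT and 1404 CPM [1373, 1437] in CD1d-deficient cells. The fitted log2 fold change was -0.17 ± 0.20 (SE) for the Cd8a class and -0.08 ± 0.20 for the S1pr1 class, each over the neither class. Cxcr3 likewise gave -0.08 ± 0.21 and -0.39 ± 0.21, with an edgeR adjusted p of 0.67 for the latter. From all UMIs, the Cxcr3 level of the S1pr1 class was below that of the neither class in every pool, at 689 against 852 CPM in WT, 487 against 637 in Jα18-deficient and 452 against 871 in CD1d-deficient cells. At equal depth the direction turned in the CD1d-deficient pool, at 900 CPM [750, 1072] in 14 cells of the S1pr1 class against 805 [752, 860] in the neither class. That turn rested on 1 cell, which held 35 of the 126 UMIs of the S1pr1 class. Without the top cell of each class the levels were 700 CPM in the S1pr1 class and 772 in the neither class.

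**Figure D3:**
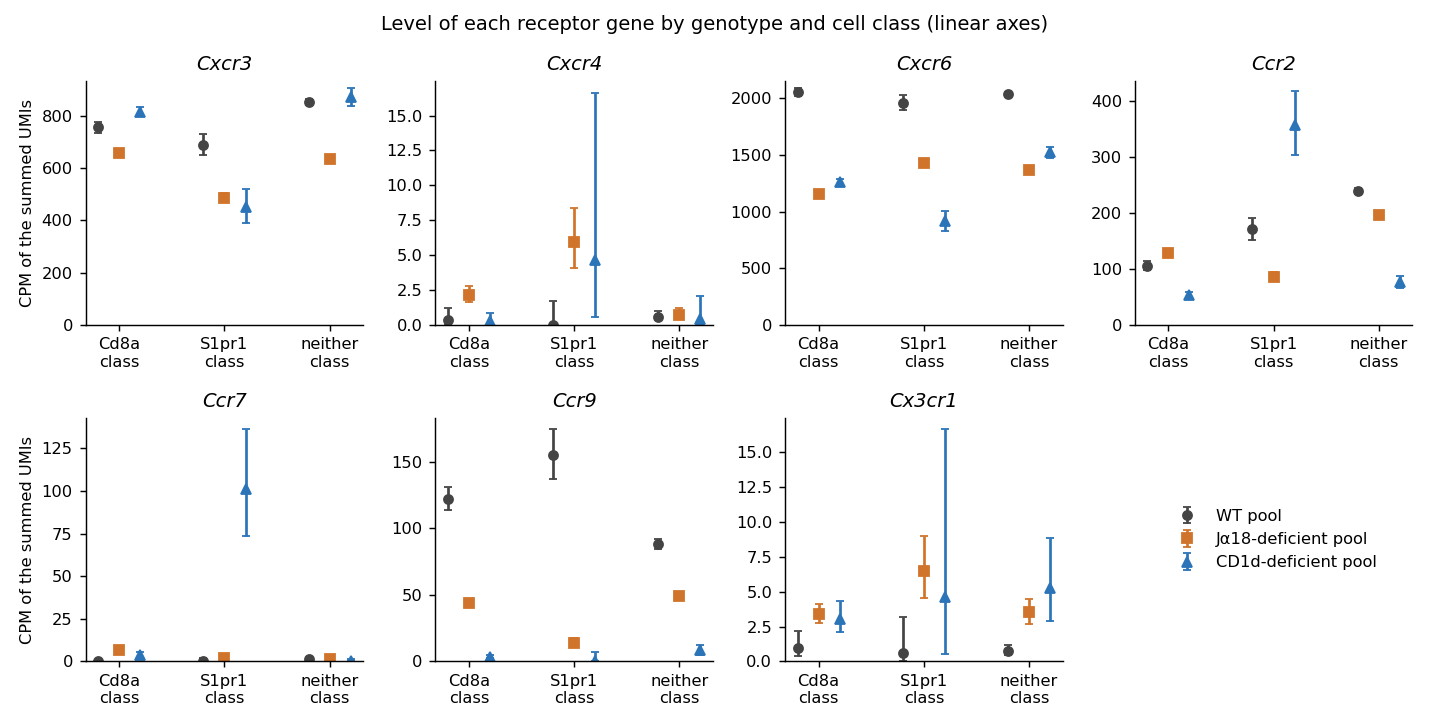
Level of each receptor gene (vertical axis, CPM of the summed UMIs, linear and different for each gene) in the Cd8a, S1pr1 and neither classes of the 3 pools; bars are exact 95% Poisson intervals, with 3 UMIs as the upper limit of a sum of 0. With 1 UMI defining a class, as drawn here, Cxcr6 is highest in WT in each class, Ccr9 is near 0 in CD1d-deficient cells in each class, and 1 cell gives most of the high Ccr2 value of the CD1d-deficient S1pr1 class.

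The Cxcr6 level of the S1pr1 class moved with the number of S1pr1 UMIs required, with the depth and with single cells. With 5 or more UMIs of S1pr1, a rule added after the values were seen, Cxcr6 was at 1964 CPM in 14 WT cells, 414 CPM in 17 Jα18-deficient cells and 1061 CPM in 7 CD1d-deficient cells. At that rule 1 cell held 29.6% of these UMIs in WT, 64.2% in Jα18-deficient and 73.3% in CD1d-deficient cells. With classes made again at equal depth, 90% [68.3, 98.8] of the 20 WT cells of the S1pr1 class had a UMI of Cxcr6, against 57.5% [40.9, 73.0] of the 40 Jα18-deficient ones and 71.4% [41.9, 91.6] of the 14 CD1d-deficient ones. The neither class had 97.8%, 87.1% and 85.3%. The levels at equal depth were 1915 CPM in the S1pr1 class against 1975 in the neither class in WT cells. They were 472.5 against 1239 CPM in Jα18-deficient and 457 against 1372 in CD1d-deficient cells. Without its top cell, the S1pr1 class was at 1684, 415 and 362 CPM in the order WT, Jα18-deficient and CD1d-deficient. From all UMIs, 1 cell of the CD1d-deficient S1pr1 class held 275 of 396 UMIs of Cxcr6, and without it the level was 361 CPM. With 5 or more UMIs for a class, the fitted log2 fold change of Cxcr6 over the neither class was -0.60 ± 0.25 (SE), with an edgeR adjusted p of 0.48.

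The levels of Ccr2 and Ccr9 in the Cd8a class moved with the number of Cd8a UMIs required. Many cells of this class entered it on 1 UMI, since 61 of the 97 WT cells with Cd8a held 1 UMI of it, as did 130 of the 324 Jα18-deficient ones and 63 of the 234 CD1d-deficient ones. With 1 UMI required, Ccr9 was at 122 CPM [113, 131] in the Cd8a class of the WT pool, above the 88.1 [84.6, 91.8] of the neither class. With 2 UMIs it was at 32.5 CPM [24.8, 41.9] and with 5 at 1.25 CPM [0.15, 4.52], from 2 UMIs in 29 cells. In the Jα18-deficient pool the Cd8a class went from 44.1 to 35.3 and 11.96 CPM, beside 49.1 in the neither class, and 1 cell held 85.7% of the UMIs at the strictest rule. Ccr2 went from 105 to 50.4 and 38.8 CPM in WT, from 128 to 125 and 66.0 CPM in Jα18-deficient and from 53.9 to 49.8 and 30.7 CPM in CD1d-deficient cells. Ccr2 in the Cd8a class was below the neither class in all pools and at all of these rules, where the neither class had 240, 197 and 76.6 CPM. At 5 UMIs the fitted log2 fold changes were -3.84 ± 1.34 (SE) for Ccr9 and -1.80 ± 0.67 for Ccr2, and neither was called, with an edgeR adjusted p of 0.99998 for each.

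**Figure D4:**
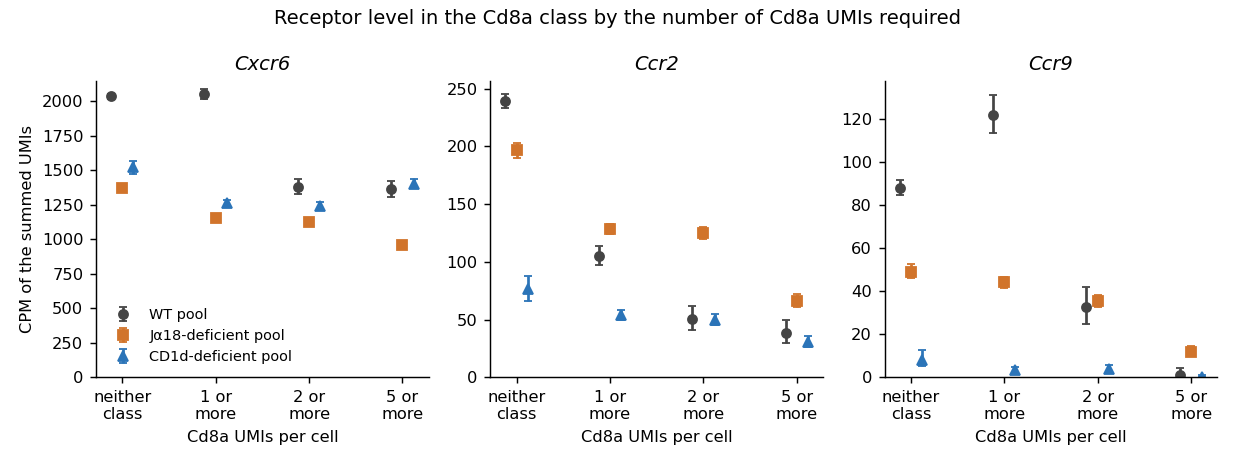
Level of Cxcr6, Ccr2 and Ccr9 (vertical axis, CPM of the summed UMIs) in the neither class and in the Cd8a class when 1, 2 or 5 UMIs of Cd8a are required (horizontal axis); bars are exact 95% Poisson intervals. Ccr2 and Ccr9 of the WT pool fall with each step, from 105 to 38.8 and from 122 to 1.25 CPM, and Cxcr6 of the WT pool falls from 2053 to 1362 CPM, below the 1404 CPM of the CD1d-deficient pool.

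Some pairs of receptors were found together in the same cells more often, while for other pairs the direction depended on depth. Among WT cells with a UMI of Ccr9, 79.1% also had Ccr2, against 59.95% of those without, and at equal depth the shares were 65.2% and 50.9%. In Jα18-deficient cells they were 78.4% and 61.8%, and 52.8% and 38.9% at equal depth. The CD1d-deficient pool had too few cells with Ccr9 for this comparison. Cells with Ccr2 also had Cxcr6 more often, at 92.1% against 81.8% in Jα18-deficient, 98.6% against 96.3% in WT and 90.2% against 88.6% in CD1d-deficient cells at equal depth. Other pairs went the other way in Jα18-deficient cells at equal depth. There 4 of the 9 cells with Ccr7 had Cxcr6, or 44.4%, against 86.5% of those without Ccr7. Of the 33 cells with Cx3cr1, 11, or 33.3%, had Ccr2, against 40.4% of those without Cx3cr1. From all UMIs of that pool neither pair was found together less often. There 27 of the 28 cells with Ccr7, or 96.4%, had Cxcr6, against 95.1% of those without. Of the 121 cells with Cx3cr1, 69.4% had Ccr2, against 64.1% of those without. At equal depth, 233 of 523 WT cells had UMIs of 3 members and 192 had 2, while 273 of the 632 Jα18-deficient and 123 of the 227 CD1d-deficient cells had 2. These shares describe cells of 1 pool each, and no test was made of them.

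Cells with 5 or more UMIs of Ccr2 or Ccr9 were compared with cells of the same pool at 0, for genes chosen after their values were seen. In WT cells Gzma, the gene of the cytotoxic protease granzyme A, was at 94.8 CPM in 231 cells with Ccr2 and 983 in 213 cells without, and Tyrobp, the adaptor of activating NK receptors, at 77.2 and 726. In the 101 cells with Ccr9 Gzma was at 27.0 CPM and Tyrobp at 48.0, against 874 and 483 in 432 cells without. The same direction was present in Jα18-deficient cells, where Gzma was at 295 CPM with Ccr2 and 2932 without, and at 72.6 with Ccr9 and 1583 without. It was not present for Ccr2 in CD1d-deficient cells, where Gzma was at 1957 CPM in 33 cells with Ccr2 and 2073 in 230 cells without. Cd8a was at 12.2 CPM in WT cells with Ccr2 and 204 in those without, and at 2.59 and 110 CPM for Ccr9. Ly6a, which encodes Sca-1, went with Ccr2 in every pool, at 1021 against 853 CPM in WT, 751 against 281 in Jα18-deficient and 398 against 43.9 in CD1d-deficient cells. The myeloid gene Csf1r moved with Ccr2, at 4.23 against 1.71 CPM in WT, 2.58 against 1.13 in Jα18-deficient and 10.4 against 7.36 in CD1d-deficient cells, and its part in these differences was not tested. Cells with Ccr2 were also deeper, with a median of 59491 UMIs against 24811 in WT, 73663 against 33277.5 in Jα18-deficient and 66065 against 9060.5 in CD1d-deficient cells.

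The 13 cells with 5 or more UMIs of Ccr7 shared several features, named after their values were seen. They were 1 WT, 7 Jα18-deficient and 5 CD1d-deficient cells with 5 to 235 UMIs of Ccr7. All of them held 13 or more UMIs of Lef1, a transcription factor of naive and memory T cells, and all had Cxcr3. Their median Cxcr6 level was 54.7 CPM, with a range of 0 to 952, against 1695 in the other WT, 849 in the other Jα18-deficient and 926 in the other CD1d-deficient cells. Of these 13 cells, 7 had S1pr1. Summed over the cells, Klf2, a factor that drives S1pr1, was at 125 CPM against 35.8 in cells without Ccr7, and Itga1, an integrin of tissue-resident lymphocytes, at 6.52 against 70.1. The myeloid gene Csf1r was at 4.35 against 3.53 CPM, and Cd14 and Clec4f were at 0. The sort markers were present in most of these cells, with Cd3e in 12 of 13 and Klrb1c in 12 of 13 cells. The cell without them was the same for both, a CD1d-deficient cell with 33 UMIs of Ccr7. Lef1 was not particular to these cells, since 14.4% to 35.2% of the other cells of a pool held 5 or more of its UMIs.

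Cells with 5 or more UMIs of Cx3cr1 were 5, all from the Jα18-deficient pool, with 9 to 32 UMIs. Gzma was at 27102 CPM in their sum, against 1073 in the Jα18-deficient cells without Cx3cr1, and Cxcr6 at 181 against 1308. In 3 of these cells Cxcr6 was at 14.3, 15.2 and 19.4 CPM, and in the other two at 770 and 879. S1pr5, a further sphingosine 1-phosphate receptor, was at 336 CPM against 2.93, but 1 of the 5 cells held all of its UMIs. The macrophage genes Adgre1, Cd14 and Clec4f were at 0 in these cells and Csf1r had 1 UMI. Cells with 5 or more UMIs of Cxcr4 were 6, of which 5 were Jα18-deficient and 1 was WT. They had a median Cxcr6 level of 438 CPM, and the cell with the most Cxcr4, 26 UMIs, was also the cell with the second highest Ccr7 count, 98 UMIs.

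**Figure D5:**
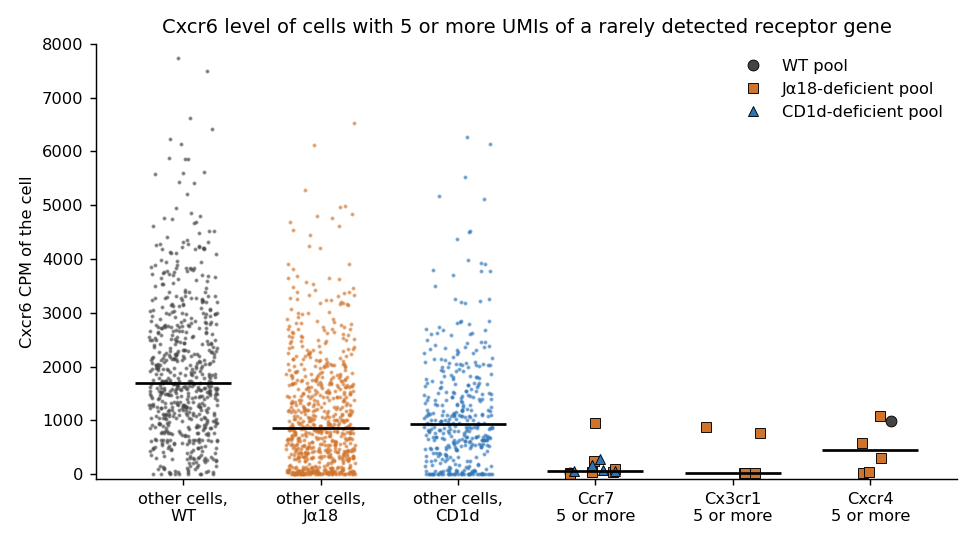
Cxcr6 level of single cells (vertical axis, CPM) in the other cells of the WT, Jα18-deficient and CD1d-deficient pools and in cells with 5 or more UMIs of Ccr7, Cx3cr1 or Cxcr4; lines are medians, and 3 cells above 8000 CPM are not drawn. The 13 Ccr7 cells have a median of 54.7 CPM, and 1 of them, at 952 CPM, lies above the medians of the other Jα18-deficient and CD1d-deficient cells.

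The remaining chemokine receptor genes were less widespread. Of 17 listed, 12 were detected and 7 were found in over 1% of the cells, and none of the 5 that could be tested was called between classes. Xcr1 was at 29.0 CPM in WT, 34.0 in Jα18-deficient and 42.0 in CD1d-deficient cells, Ccrl2 at 24.9, 24.3 and 31.7 CPM, and Cxcr2 at 5.19, 19.9 and 8.67 CPM in the same order. How reads that fit more than 1 receptor gene were counted is not given in the sources used here. Of 12 genes of chemokines that bind the members, 6 had a UMI. Cxcl10, a ligand of CXCR3, was at 126 CPM in WT, 9.23 in Jα18-deficient and 0.34 in CD1d-deficient cells, but 15 cells in all held 5 or more UMIs. Cxcl16, the ligand of CXCR6, was at 0.65, 1.17 and 4.88 CPM, Ccl25 at 0.62, 1.27 and 13.1 CPM and Cxcl9 at 0.79, 0.61 and 0 CPM. These values rest on few cells, with Cxcl16 in 22 cells in all, Ccl25 in 18 and Cxcl9 in 36. In the CD1d-deficient pool the shares with Cxcl16 and Ccl25, 2.33% and 1.81%, were below the 2.58% of the B cell gene Cd79a.

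Genes of egress and adhesion and of signalling below the receptors were given lists of their own. Of 20 egress and adhesion genes, 17 were tested, with S1pr1 left out because it defines a class. None of the 17 was called in any comparison of classes, where 0%, 0% and 0.0408% of all genes were called in the order given above. In the S1pr1 class over the neither class 7 of them were at an unadjusted p under 0.05 by edgeR, all higher, beside 804 of all 9802 genes. Among the 7, Klf2, named after its value was seen, was at a log2 fold change of 2.31 ± 0.62 (SE) with an edgeR adjusted p of 0.59. The most abundant of the list were Selplg, at 852, 1050 and 1218 CPM in WT, Jα18-deficient and CD1d-deficient cells, and the integrin genes Itgb2, at 681, 683 and 615 CPM, Itgb7, at 234, 401 and 359 CPM, and Itgal, at 212, 197 and 195 CPM. Between Jα18-deficient and WT cells 6 of the 20 were 2-fold or more higher and none lower. Of all 10267 genes in that pair, 1442 were higher and 733 lower by this measure. Between CD1d-deficient and WT cells 3 of the 16 with enough UMIs were higher and none lower. There 1148 of all 9447 genes were higher and 1166 lower. Of 30 signalling genes, 28 were tested and none was called, and their median log2 ratio to WT was 0.27 in the Jα18-deficient and 0.19 in the CD1d-deficient pool. Rac2 was at 3049, 2656 and 2550 CPM, Coro1a at 1701, 2247 and 2004, Gnai2, the inhibitory G protein subunit used by these receptors, at 344, 775 and 473, and Tln1 at 237, 367 and 350.

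Other genes followed some members across the 9 sums of pool and class. By Pearson's r of log2 CPM over these sums, among genes with at least 500 UMIs, the closest to Cxcr6 were Chchd2, Ms4a6b and Arf1 (r = 0.93, 0.93 and 0.91), and the closest to Cxcr3 were 4933427D14Rik, Stim1 and Nudt19 (0.95, 0.95 and 0.94). For Ccr2 they were Rpl22, Sh3bp5 and Max (0.94, 0.94 and 0.91), for Ccr9 Kdm5c, Lsm5 and Osgepl1 (0.98, 0.97 and 0.96), for Ccr7 Pdlim7, A430033K04Rik and Tob2 (0.98, 0.94 and 0.93), for Cxcr4 Supt5, Adk and Dpp4 (0.97, 0.97 and 0.97) and for Cx3cr1 Cyp2e1, Ahnak and Ndufa11 (0.96, 0.95 and 0.94). The sums of a pool share its libraries, 8285 or 8286 genes were compared with each member, and several sums of Ccr7, Cxcr4 and Cx3cr1 hold few UMIs, so that these are descriptions of n = 9 points.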

How the data were processed

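Per the labels and methods, the authors trimmed reads with Cutadapt 1.15, aligned them to mm9 with TopHat2 2.0.12, counted genes with HTSeq 0.10.0 and collapsed duplicates by UMI. The deposited values are raw UMI counts per gene and cell. The stated filter, over 500 genes and 10000 to 600000 transcripts, leaves 1382 cells, and 353 shallower cells in the matrix were kept. Here counts were summed per pool (totals of 14536585 to 60484252 UMIs), or per pool and class, and scaled to CPM. Classes were tested with edgeR 4.0.16 (TMM, filterByExpr, pool term), with DESeq2 1.42.0 and limma 3.58.1 as alternatives, each run first on simulated data. Doublets were not called. The 7 genes, the lists and the classes were chosen with earlier results of these data known. The text names all members, the 4 genes of each list that were called or, failing that, most abundant, and the 3 genes most like each member; others are marked as chosen later, and some listed genes are not reported here. Alternatives covered the test, low counts, scaling, weight of cells, depth, class rule and single pools.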

Additional observations from a re-analysis of the deposited data

Results flagged for a closer look

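Some class differences of Ccr2 and Ccr9 took opposite directions in different pools when all UMIs were used. These differences between pools were not tested, since each pool is 1 sum per class. For Ccr2, the log2 ratio of the S1pr1 class over the neither class was 2.221 in the CD1d-deficient pool and -1.199 in the Jα18-deficient pool, and over the Cd8a class it was 0.6959 in WT, 2.728 in CD1d-deficient and -0.5857 in Jα18-deficient cells. In the CD1d-deficient S1pr1 class 1 cell held 135 of the 155 UMIs of Ccr2, and without it the level fell from 357 to 59.7 CPM, below the 76.6 CPM of the neither class. For Ccr9, the log2 ratio of the S1pr1 class over the neither class was 0.8111 in WT and -1.802 in Jα18-deficient cells, from 31 and 56 cells of the S1pr1 class. At equal depth Ccr2 was lower in the S1pr1 class than in the neither class in every pool. It was at 145 against 246 CPM in WT, 70 against 198 in Jα18-deficient and 35.7 against 83.5 in CD1d-deficient cells. The Cd8a class had 71.7, 51.6 and 39.4 CPM in the same order. Ccr9 at equal depth was at 105 against 98.5 CPM in WT and 0 against 38.3 in Jα18-deficient cells, S1pr1 class against neither class. No group had 4 or more samples, so that single samples could not be screened for distance from their group.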

How the results depend on the processing

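No paired analysis was possible because the cell names carry no library number, although the labels number the libraries of each genotype alike. No member was called under any alternative. Genes called in the Cd8a class over the neither class, 0 in the report, were 7 with no filter on low counts, 6 with thinned cells and 13 with at least 5 UMIs for a class, an alternative added after seeing the data, as was limma on the mean of single-cell CPM. For the S1pr1 class over the neither class, also 0, they were 90 by DESeq2, 6 with no filter, 4 with thinned cells, 1 with at least 5 UMIs, and 0 to 2 without 1 pool (2 without the Jα18-deficient pool). For the S1pr1 class over the Cd8a class, 4 in the report, they were 173 by DESeq2, 40 with no filter, 0 with no pool term, 18 with at least 2 UMIs, 101 with thinned cells, 59 with at least 5 UMIs, 9 by limma on mean CPM, and 0 to 10 without 1 pool (0 without the CD1d-deficient and 10 without the Jα18-deficient pool). Genes past 2-fold in thinned cells were 624, 719 and 844 in the pairs Jα18-deficient over WT, CD1d-deficient over WT and CD1d-deficient over Jα18-deficient, against 2175, 2314 and 2745, where fewer genes reached 100 UMIs.

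Of the members' fitted log2 fold changes, none called, 31 reversed. In the Cd8a class over the neither class, these were Cxcr4 at -0.23 by limma on mean CPM, Ccr7 at 1.04 by limma, 1.58 with no pool term, 0.72 with at least 2 UMIs and 0.51 by limma on mean CPM, Ccr9 at 0.25 with no pool term, and Cx3cr1 at 0.18 with at least 2 and 0.50 with at least 5 UMIs. Without 1 pool, Ccr7 ranged from -2.75 to 2.37, Ccr9 from -0.83 to 0.092 and Cx3cr1 from -0.47 to 0.17. In the S1pr1 class over the neither class, they were Ccr2 at -1.08 with thinned cells, Ccr9 at 0.38 with no pool term and Cx3cr1 at -0.69 by limma on mean CPM. Without 1 pool, Cxcr6 ranged from -0.32 to 0.19, Ccr2 from -0.64 to 1.04, Ccr7 from -2.52 to 5.596 and Cx3cr1 from -0.20 to 0.65. In the S1pr1 class over the Cd8a class, they were Cxcr6 at -0.062 with no TMM factors, -0.64 with thinned cells, -0.28 with at least 5 UMIs and -0.36 by limma on mean CPM, Ccr9 at 0.12 with no pool term, 0.062 with thinned cells and 3.18 with at least 5 UMIs, and Cx3cr1 at -0.42 with at least 5 UMIs and -0.40 by limma on mean CPM. Without 1 pool, Cxcr6 ranged from -0.20 to 0.28, Ccr7 from -1.10 to 4.30, Ccr9 from -1.54 to 0.12 and Cx3cr1 from -0.017 to 1.05. The cause was not tested.

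Between genotypes, 44 of the log2 CPM ratios recomputed moved by less than their counting interval and 40 by more. Cxcr4 in Jα18-deficient over WT cells, at 1.98, was 0.99996 with equal weight per cell and 0.21 with thinned cells. Thinning dropped Ccr7, Cxcr4 and Cx3cr1 from the class fits, and the depth of the CD1d-deficient pool limits its rare receptors.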
